A study of Mus musculus with 31 samples.

Results

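T cell receptor gene segments are the separate pieces of DNA from which a developing T cell assembles the genes for the α and β chains of its antigen receptor. They were taken here as every gene whose listed name starts with Trav, Traj, Trac, Trbv, Trbj, Trbd or Trbc, which gave 242 of the 46072 genes measured. Of these, 129 were Vα segments (Trav), 60 were Jα segments (Traj), 34 were Vβ segments (Trbv), 14 were Jβ segments (Trbj), 2 were Dβ segments (Trbd), and the remaining 3 were the constant region genes Trac, Trbc1 and Trbc2. The 190 α segments lie on chromosome 14 and the 52 β segments on chromosome 6.

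To examine early changes in gene expression after radiation therapy (RT), mRNA was sequenced from whole tumors grown from RM-9 cells, a mouse prostate cancer line, or MC-38 cells, a mouse colon cancer line. Each tumor grew under the skin of the right hind leg of a male wild type C57BL/6 mouse and either was left unirradiated (control) or received a single local dose of 15 Gy and was collected 3 h, 12 h or 24 h later. Each group had 4 mice, except the RM-9 group at 24 h, which had 3, so the RM-9 model had 15 libraries and the MC-38 model 16. Both models are transplanted cell lines in a site that is not their organ of origin, and the unirradiated tumors all carry the 3 h label, so they serve as the control of every time point.

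A complete α chain message joins a V segment to a J segment and to Trac, and a complete β chain message joins V, D and J segments to Trbc1 or Trbc2. The V segment forms most of the antigen contact surface, the D and J segments complete it, and the constant region anchors the chain in the membrane, where it pairs with the CD3 chains that signal. In a whole tumor such complete messages are known to come from infiltrating T cells. Their level reflects both how many T cells are present and how much receptor RNA each one holds, which cannot be told apart in bulk tissue. Whether the reads of a single segment came from complete messages, and from which cells, was not tested here.

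Values are TPM, a gene's share of all transcripts as the authors' counting estimated it, which corrects the read share for gene length. A mean depth of 1 read over a gene corresponded to 0.370 to 0.809 TPM over the 31 libraries, which held an estimated 21.4 to 29.4 M reads. The receptor segments took few of these reads, an estimated 124 to 375 per library in RM-9 and 353 to 1089 in MC-38. These estimates add up all rows, so a read shared by several rows may be counted in each. Thus, 69 of the 242 segments were at 0 in every library, 98 were above 0 in at least 1 RM-9 library and 158 in at least 1 MC-38 library. A filter of a mean of at least 0.5 TPM over the libraries of a model left 6 segments in RM-9 and 20 in MC-38 for testing with limma, and the other segments are described by their values alone.

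Length set a further limit. All 60 Jα segments (29 to 72 bases), all 14 Jβ segments (46 to 54 bases) and both Dβ segments (12 and 14 bases) were shorter than the 75-base read, 76 segments in all, so a read that covers one of them must also cover its neighbor in the message or in the genome. Trbj2-7 and Trbj2-5 are shown because they were called in the tests, and Trbd1 because it is among the shortest members. Sequences are those of the GENCODE M21 annotation of GRCm38, 5′ to 3′, and capitals mark the phenylalanine-glycine-any-glycine codons, which 54 of the 74 J segments hold when searched on the coding strand.
Trbj2-7 (chr6:41543810-41543856, plus strand): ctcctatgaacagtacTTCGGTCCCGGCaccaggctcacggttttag
Trbj2-5 (chr6:41543453-41543501, plus strand): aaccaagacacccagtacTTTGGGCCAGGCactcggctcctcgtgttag
Trbd1 (chr6:41533201-41533212, plus strand, no capitals): gggacagggggc

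The constant region genes, which every mature α or β message carries, were the most evenly measured members and were above 0 in all 31 libraries. Trac (chr14:54220521-54224206) is the only constant gene of the α chain. In RM-9 it measured 2.67, 2.77, 3.01 and 4.49 TPM in the 4 control mice, 2.21, 1.87, 1.13 and 2.84 TPM at 3 h, 1.73, 0.987, 1.10 and 0.964 TPM at 12 h, and 1.69, 1.64 and 1.62 TPM at 24 h. Every RM-9 tumor at 12 h and 24 h lay below every control, and 1 tumor at 3 h lay within the control range.

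Trbc2 (chr6:41546730-41548352), a constant gene of the β chain, measured 5.73, 5.55, 3.57 and 7.43 TPM in the RM-9 controls, 2.24, 2.57, 1.74 and 4.22 TPM at 3 h, 2.98, 2.10, 2.36 and 1.70 TPM at 12 h, and 3.09, 3.16 and 3.53 TPM at 24 h. Again the tumors at 12 h and 24 h all lay below the lowest control, and 1 tumor at 3 h did not. Trbc1 (chr6:41538218-41539881), the other β constant gene, measured 2.95, 3.09, 2.19 and 4.53 TPM in the controls, 1.89, 2.44, 1.44 and 2.91 TPM at 3 h, 2.34, 1.51, 1.43 and 1.64 TPM at 12 h, and 2.35, 2.35 and 2.69 TPM at 24 h. Its control range overlapped that of every irradiated group. Trbc1 and Trbc2 are near copies, with 34.6% and 37.7% of their 75-base stretches in common, so part of the reads of each could have come from the other.

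In RM-9, 3 of the 6 tested segments were lower at 12 h and none was higher, while 8.30% of all 14013 tested genes were lower and 0.0714% were higher. These 3 were Trac, with a log2 fold change of -1.14 (SE 0.21, adjusted p = 0.0246), Trbc2, with -1.10 (SE 0.22, adjusted p = 0.0246), and Trbc1, with -0.71 (SE 0.20, adjusted p = 0.0448), on the log2(TPM + 0.5) scale. The median log2 fold change was -0.72 over the 6 segments and -0.19 over all tested genes. Among the 6, Trbj2-7 (mean of 0.998 TPM in the controls, 0.277 at 12 h) and Trbj1-6 (0.803 and 0.337 TPM) passed the filter largely through their controls. This favors a fall in these segments, so the medians are not an even comparison. When each library was scaled by the median of its gene ratios, which removed that shift, 6 of all tested genes were lower and no segment was called (Trac at -0.97, adjusted p = 0.0671, Trbc2 at -0.92, adjusted p = 0.0935, and Trbc1 at -0.53, adjusted p = 0.237). Without the mitochondrially encoded genes in the total, Trac alone was called (-1.15, adjusted p = 0.0470), and no segment was called without any 1 of control mice 1, 2 and 4 or of irradiated mice 1 and 4. In each of those fits no gene of the whole table was called either (0 higher and 0 lower of 14013), so the loss was not particular to the segments. Without control mouse 4, the highest control for all 3 genes, Trac and Trbc2 had an adjusted p of 0.102 and Trbc1 one of 0.149.

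At 3 h in RM-9, none of the 6 segments was called, beside 0.200% of all genes higher and 0.0285% lower. Trbc2 came nearest, at -0.94 (SE 0.22, adjusted p = 0.0892), and it was called with median-ratio scaling (-1.0, adjusted p = 0.0342) and without control mouse 3 (-1.12, adjusted p = 0.0388). At 24 h none of the 6 was called either, and no gene of the whole table was called in either direction (0% higher, 0% lower). At an unadjusted p under 0.05, 3 of the 6 segments and 3060 of all genes passed at 3 h, and 2 of the 6 and 681 of all genes at 24 h.

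The 3 other RM-9 segments past the filter were Trav4-4-dv10, Trbj1-6 and Trbj2-7, and none was called at any time. Trav4-4-dv10, a Vα segment whose name marks it as usable by the δ chain too, measured 0.364, 0.772, 0.558 and 0.626 TPM in the controls, 1.05, 0.481, 0.725 and 0.558 TPM at 3 h, 0.213, 0.863, 0.392 and 0.440 TPM at 12 h, and 0.230, 0.429 and 0.297 TPM at 24 h, with overlapping ranges throughout. It was the Vα segment with the highest mean in RM-9, whereas in MC-38 it was above 0 in 3 of 16 libraries (0.113, 0.188 and 0.224 TPM).

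**Figure D1:**
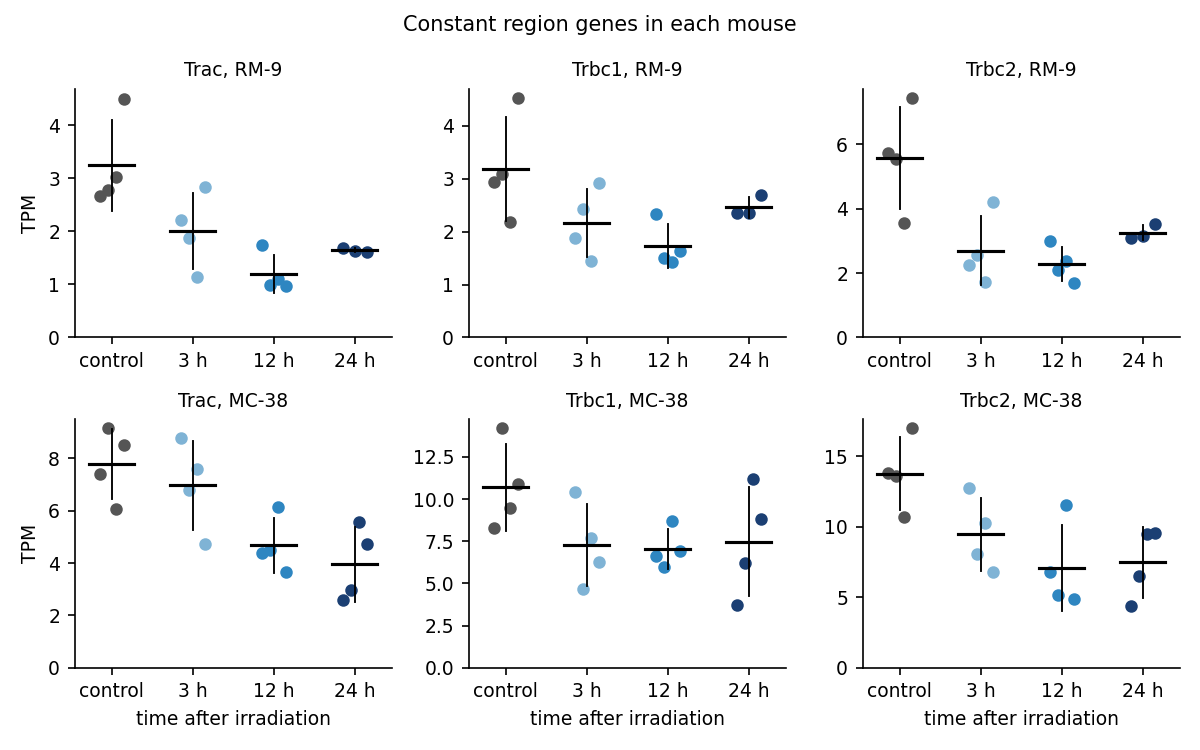
TPM of the constant region genes Trac, Trbc1 and Trbc2 (columns) in each RM-9 (upper row) and MC-38 (lower row) tumor by time after irradiation. Each point is 1 mouse, the horizontal line is the group mean and the vertical line its SD, and every RM-9 tumor at 12 h lies below all controls for Trac and Trbc2.

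In MC-38 the constant region genes had higher levels than in RM-9. Trac measured 7.39, 9.16, 6.08 and 8.49 TPM in the controls, 8.77, 6.80, 7.58 and 4.74 TPM at 3 h, 4.38, 4.51, 6.15 and 3.68 TPM at 12 h, and 2.58, 2.95, 5.57 and 4.74 TPM at 24 h. All 4 tumors at 24 h lay below the lowest control, and at 12 h 1 of 4 overlapped the controls. The log2 fold change was -0.16 (SE 0.23, adjusted p = 0.682) at 3 h, -0.68 (SE 0.23, adjusted p = 0.0384) at 12 h and -0.93 (SE 0.23, adjusted p = 0.0165) at 24 h. The 12 h call was lost without any 1 of control mice 1, 2 and 4 or of irradiated mice 1, 2 and 4 (adjusted p of 0.0714 to 0.105), and the 24 h call without irradiated mouse 2 (adjusted p = 0.0532). Fitting only the 2 groups compared ended both calls (limma adjusted p = 0.0843 at 24 h). With no filter the 12 h call was lost too.

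Trbc2 measured 13.8, 13.6, 10.7 and 17.0 TPM in the MC-38 controls, 12.7, 8.07, 10.3 and 6.76 TPM at 3 h, 6.81, 5.13, 11.5 and 4.87 TPM at 12 h, and 4.36, 6.53, 9.47 and 9.55 TPM at 24 h. Only at 24 h did all 4 tumors lie below every control. It had a log2 fold change of -0.97 (SE 0.28, adjusted p = 0.0224) at 12 h and -0.88 (SE 0.28, adjusted p = 0.0460) at 24 h. The 12 h call was lost without any 1 of control mice 1 and 4 or of irradiated mice 2 and 4 (adjusted p of 0.0552 to 0.0688). The 24 h call was lost without any 1 of control mice 1, 2 and 4 or of irradiated mice 1, 2 and 4, where the adjusted p was 0.0534 to 0.116. Fitting only the 2 groups compared ended both calls (limma adjusted p = 0.0505 at 12 h). The 24 h call was also lost with no filter and with no intensity trend.

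Trbc1 measured 8.28, 14.2, 9.46 and 10.9 TPM in the MC-38 controls, 10.4, 4.67, 7.70 and 6.30 TPM at 3 h, 6.61, 5.98, 8.69 and 6.91 TPM at 12 h, and 3.71, 6.19, 11.2 and 8.81 TPM at 24 h. Its ranges overlapped at every time, and its log2 fold changes of -0.55 at 3 h and 12 h and -0.56 at 24 h (SE 0.28 each) had adjusted p-values of 0.274, 0.128 and 0.189. With median-ratio scaling Trbc1 was called at 12 h (-0.89, adjusted p = 0.0351) and at 24 h (-0.82, adjusted p = 0.0484).

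An exact two-sided permutation test of mean TPM was run on each of the 3 constant genes in each of the 6 comparisons, 18 tests in all. The smallest p that 4 against 4 mice allow is 0.0286, and it was reached by Trac and Trbc2 at 12 h in RM-9 and at 24 h in MC-38 (exact permutation test). With 3 against 4 mice the smallest possible p is 0.0571, reached by both genes at 24 h in RM-9 (exact permutation test). Adjusted over the 18 exact permutation tests, the lowest p was 0.0857, so no single gene passed by this test. With these smallest values no gene could pass on its own after adjustment, so the adjusted result cannot decide. In each of the 18 comparisons the irradiated mean was the lower one, but the comparisons are not independent. They reuse the same mice and controls, and Trbc1 and Trbc2 may share reads.

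Unlike the constant regions, 2 pairs of Vα segments past the filter rose in MC-38. Trav15n-1 and Trav15d-1-dv6d-1 are the first Trav15 segments of the n and d copies of a repeated stretch of the α locus, and Trav15-1-dv6-1 is their counterpart in the copy without a letter. The 300 bases that end each V exon are shown because they decide which rows can be told apart. They were identical between the n and d copies, and capitals mark the bases at which these differ from the third copy, 15 of 300 (95.0% identity).
Trav15n-1 (chr14:53174597-53174896, plus strand): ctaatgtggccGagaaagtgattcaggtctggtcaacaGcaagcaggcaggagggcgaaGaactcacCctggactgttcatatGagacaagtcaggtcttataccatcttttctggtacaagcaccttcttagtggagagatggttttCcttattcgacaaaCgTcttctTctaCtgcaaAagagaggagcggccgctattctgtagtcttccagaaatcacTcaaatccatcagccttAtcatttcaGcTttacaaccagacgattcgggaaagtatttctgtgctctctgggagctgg
Trav15d-1-dv6d-1 (chr14:52863637-52863936, plus strand): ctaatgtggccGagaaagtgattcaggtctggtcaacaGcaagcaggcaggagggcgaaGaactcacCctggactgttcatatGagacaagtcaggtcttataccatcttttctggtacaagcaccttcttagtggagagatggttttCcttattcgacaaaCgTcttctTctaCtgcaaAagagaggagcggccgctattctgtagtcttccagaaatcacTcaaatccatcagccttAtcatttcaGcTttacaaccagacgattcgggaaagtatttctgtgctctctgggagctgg
Trav15-1-dv6-1 (chr14:53559948-53560247, plus strand): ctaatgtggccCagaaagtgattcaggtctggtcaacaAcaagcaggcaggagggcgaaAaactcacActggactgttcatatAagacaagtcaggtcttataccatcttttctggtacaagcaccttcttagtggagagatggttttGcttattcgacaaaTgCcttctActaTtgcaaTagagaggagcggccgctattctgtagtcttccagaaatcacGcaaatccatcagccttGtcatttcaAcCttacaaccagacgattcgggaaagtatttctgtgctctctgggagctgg

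Every 75-base stretch of Trav15n-1 also occurs in Trav15d-1-dv6d-1, and 83.2% of those of Trav15d-1-dv6d-1 occur in Trav15n-1. In each of the 16 MC-38 libraries the TPM of the first was 1.18 to 1.19 times that of the second, and the annotated exon length of the second is 1.19 times that of the first (418 against 352 bases). Their values are thus 1 set of reads listed in 2 rows, and the pair is 1 measurement here. Whether the counting split shared reads between the rows or counted them in both is not given in the sources used here. No 75-base stretch of Trav15-1-dv6-1 occurs in any other segment.

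Trav15n-1 was at 0 in all 15 RM-9 libraries and above 0 in all 16 MC-38 libraries. It measured 1.11, 5.35, 4.10 and 1.29 TPM in the MC-38 controls, 11.4, 3.72, 26.2 and 6.79 TPM at 3 h, 14, 12.2, 39.7 and 44.2 TPM at 12 h, and 60.3, 40.5, 18.5 and 35.3 TPM at 24 h. Of the tumors at 3 h, 3 of 4 lay above every control, and at 12 h and 24 h all 4 did. Trav15d-1-dv6d-1 measured 0.934, 4.50, 3.45 and 1.08 TPM in the controls and 50.9, 34.2, 15.5 and 29.8 TPM at 24 h. Over all 16 MC-38 libraries the pair had the highest mean of all 242 segments, but in the controls the mean of Trav15n-1, 2.96 TPM, lay below those of Trbc2 (13.8), Trbc1 (10.7) and Trac (7.78 TPM). After irradiation the order was the reverse. At 12 h the mean of Trav15n-1 was 27.5 TPM against 4.68 TPM for Trac, the only α constant gene. At 24 h it was 38.6 TPM against 3.96 TPM for Trac and 7.48 TPM for each of Trbc1 and Trbc2. The cause of this excess over Trac was not tested.

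Trav15n-1 had a log2 fold change of 1.75 (SE 0.58, adjusted p = 0.165) at 3 h, 3.02 (SE 0.58, adjusted p = 0.00842) at 12 h and 3.60 (SE 0.58, adjusted p = 0.00146) at 24 h. On the TPM scale the mean rose from 2.96 ± 2.10 in the controls to 27.5 ± 16.8 at 12 h, 9.29 times the control mean, and to 38.6 ± 17.2 at 24 h, 13 times (SD, n = 4 in each group). Its fold change ranked 3 among the 15698 tested genes at both 12 h and 24 h, and that of its partner row ranked 4. Leaving out any single mouse kept the 12 h call (adjusted p of 0.0353 or less) and the 24 h call (adjusted p of 0.00589 or less).

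**Figure D2:**
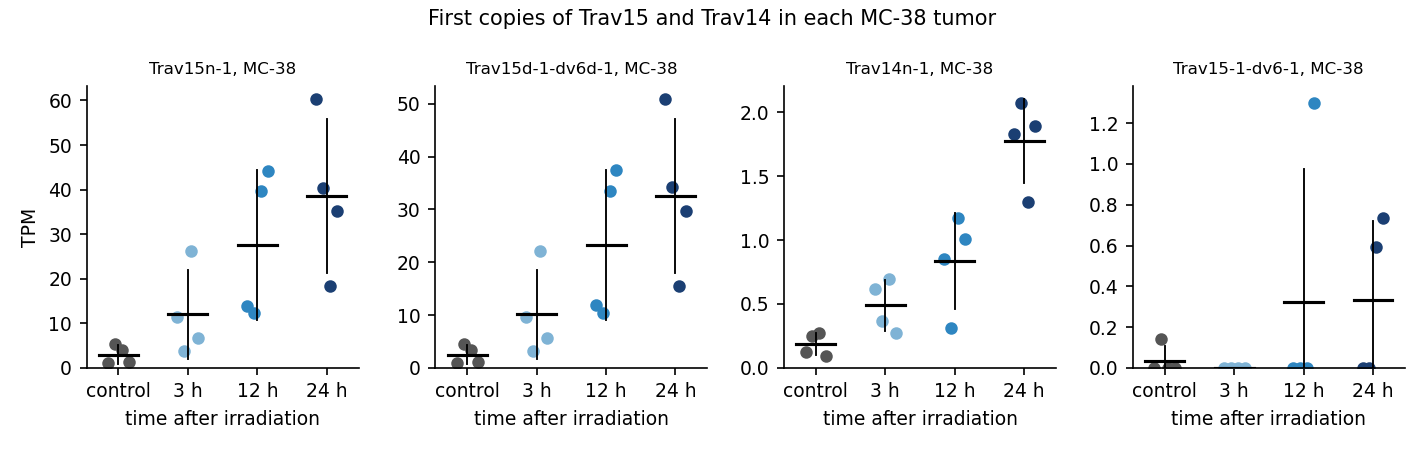
TPM of Trav15n-1, Trav15d-1-dv6d-1, Trav14n-1 and Trav15-1-dv6-1 in each MC-38 tumor by time after irradiation. Points are mice, horizontal lines are group means and vertical lines their SD, and each panel has its own scale. All tumors at 24 h lie above every control in the first 3 panels, whereas the fourth is at 0 in most tumors.

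The other 7 Trav15 segments stayed at or near 0. Trav15-1-dv6-1 was above 0 in 4 MC-38 libraries, at 0.141 TPM in 1 control, 1.30 TPM in 1 tumor at 12 h, and 0.592 and 0.736 TPM in 2 tumors at 24 h, and in no RM-9 library. Trav15-2-dv6-2 was above 0 in 2 RM-9 libraries (0.0810 and 0.0739 TPM) and in no MC-38 library. Trav15d-2-dv6d-2 and Trav15n-2 were at 0 throughout, and the pseudogenes Trav15-3, Trav15d-3 and Trav15n-3 were each above 0 in 1 MC-38 library, at 0.0659, 0.0612 and 0.0608 TPM, all in mouse 1 of the 24 h group.

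Trav14n-1 and Trav14d-1, the Vα segments next upstream on the same strand of each copy, were the second pair. The 280 bases at the end of their V exons are identical, every 75-base stretch of each also occurs in other Trav14 segments, and the TPM of the first was 1.00 times that of the second in each of the 16 MC-38 libraries, so they too were 1 measurement. Trav14n-1 measured 0.124, 0.248, 0.271 and 0.0960 TPM in the controls, 0.617, 0.370, 0.697 and 0.273 TPM at 3 h, 0.850, 0.314, 1.17 and 1.01 TPM at 12 h, and 1.83, 2.07, 1.30 and 1.90 TPM at 24 h. No irradiated MC-38 tumor lay within the control range. It had a log2 fold change of 0.52 (SE 0.23, adjusted p = 0.232) at 3 h, 0.92 (SE 0.23, adjusted p = 0.0149) at 12 h and 1.73 (SE 0.23, adjusted p = 0.000413) at 24 h, and was at 0 in all RM-9 libraries. Its mean was 0.185 TPM in the controls and 0.489 TPM at 3 h, so it passed the filter of 0.5 TPM only through the 12 h and 24 h groups. A segment as low in the controls that did not rise would not have been tested. With no filter the pair was called at 12 h and 24 h as well. At these low levels the 12 h value moved with the pseudocount, from 0.61 (1 TPM) to 1.65 (0.1 TPM), as did the 24 h value, from 1.22 to 2.75, and the 12 h call was lost when only the 2 groups compared were fitted (adjusted p = 0.0511).

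One segment further upstream, Trav13n-1 and Trav13d-1 had means below the filter. With no filter Trav13n-1 was called higher in MC-38 at 12 h and 24 h, and Trav14-3 at 24 h. Trav13n-1 was above 0 in 1 of 4 controls (0.0816 TPM), in 2 of 4 tumors at 3 h (0.530 and 0.598 TPM) and in all 4 at 12 h (0.286, 0.459, 0.705 and 0.463 TPM) and at 24 h (0.490, 0.526, 0.410 and 0.358 TPM). It was at 0 in every RM-9 library. In the copy without a letter, Trav14-1 was above 0 in 1 MC-38 library (0.205 TPM, a control) and Trav13-1 in 2 (0.114 and 0.340 TPM, both at 24 h).

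Between Trav14n-1 and Trav15n-1, and at the same place in the d copy, lies an annotated gene on the opposite strand, RP23-371K2.5 and RP23-452K12.18, which is no receptor segment. Their mean was 2.82 and 2.81 TPM in the MC-38 controls and 3.44 TPM for both at 24 h (log2 fold change of 0.24, SE 0.15 each, adjusted p of 0.270 and 0.266), and unlike the Vα pair they were also read in RM-9, at up to 3.11 TPM. The strand setting of the counting is not given in the sources used here.

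**Figure D3:**
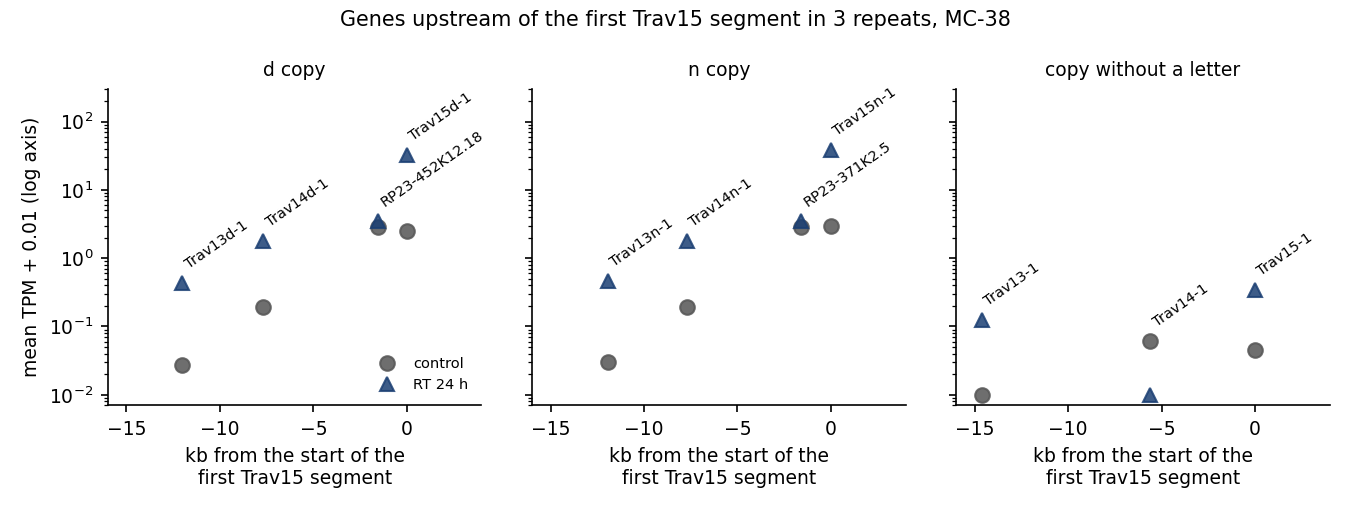
Mean TPM (log axis, after adding a small constant) in MC-38 controls (circles) and at 24 h (triangles), n = 4 each, of the genes up to 15 kb upstream of the first Trav15 segment in the d copy, the n copy and the copy without a letter, by distance in kb from the start of that segment. The Vα segments of the d and n copies lie higher at 24 h, the gene on the opposite strand stays near its control level, and the copy without a letter is below 1 TPM.

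Over the whole set, 4 of the 20 tested segments in MC-38 were higher at 12 h and 3 were lower, beside 28.5% of all 15698 tested genes higher and 2.59% lower. The higher ones were the Trav15 and Trav14 pairs, hence 2 measurements, and the lower ones were Trbj2-7, Trbc2 and Trac. The Trav14 pair passed the filter only through its 12 h and 24 h groups. At 24 h again 4 were higher and 3 lower, beside 13.2% of all genes higher and 0.548% lower. The same 2 pairs were higher, and the lower ones were Trbj2-5, Trac and Trbc2. At 3 h no segment was called (0.0510% of all genes higher, 0.0127% lower), with 5 of 20 segments and 3130 of all genes at an unadjusted p under 0.05.

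The median log2 fold change over the 20 segments was -0.19, -0.08 and -0.33 at the 3 times in order, against 0.19, 0.33 and 0.22 over all tested genes. With median-ratio scaling, which removed the shift of all genes, the split of all calls changed to 995 higher and 1544 lower at 12 h and to 1232 and 1280 at 24 h, while the segments called were 4 higher and 4 lower, and 4 higher and 5 lower. Without mitochondrially encoded genes in the total, the split was 3239 and 675 at 12 h and 2169 and 452 at 24 h, and the segments called were 4 higher and 3 lower at both times.

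**Figure D4:**
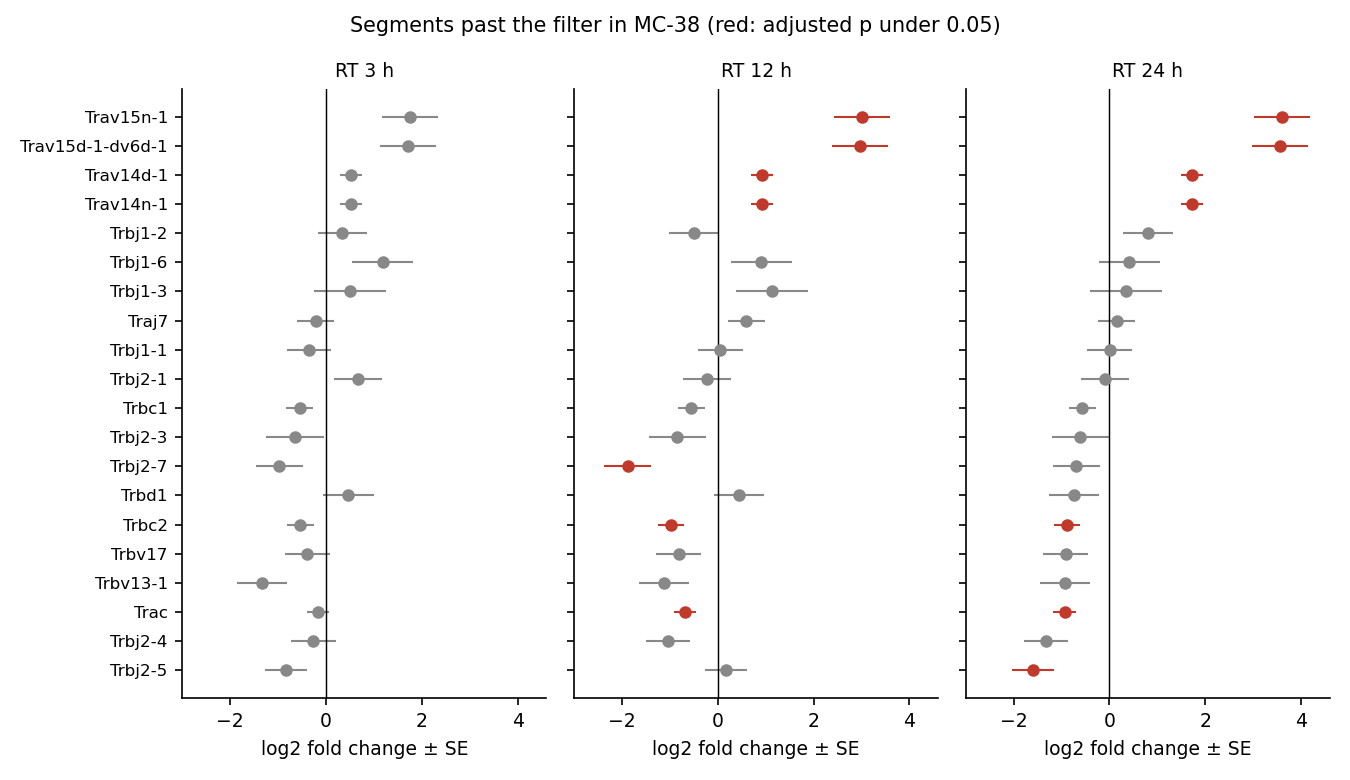
Log2 fold change against control with its SE for the 20 segments past the filter in MC-38, with 1 panel for each time after irradiation. Red points have an adjusted p under 0.05, and the 4 segments at the top are the Trav15 and Trav14 pairs, which lie right of 0 at all 3 times.

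Among the Jβ segments, 9 of 14 passed the filter in MC-38. Trbj2-7, printed above, measured 2.96, 1.78, 1.67 and 7.37 TPM in the controls, 1.62, 0.466, 0.716 and 3.11 TPM at 3 h, 0.799, 0.843, 0 and 0.334 TPM at 12 h, and 1.70, 0.734, 1.41 and 3.37 TPM at 24 h. At 12 h all 4 tumors lay below every control, and its log2 fold change of -1.88 (SE 0.49, adjusted p = 0.0170) was the largest fall among the 20 tested segments at that time and was called under every alternative in which the segment was tested. At 3 h and 24 h it was -0.98 (SE 0.49, adjusted p = 0.267) and -0.69 (SE 0.49, adjusted p = 0.355), with overlapping ranges.

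Trbj2-5 measured 0.477, 1.41, 1.85 and 0.682 TPM in the controls, 1.86, 0.349, 0 and 0 TPM at 3 h, 1.36, 0.682, 2.42 and 0.785 TPM at 12 h, and 0 in all 4 tumors at 24 h, where it was listed as lower (log2 fold change of -1.59 after the pseudocount, SE 0.43, adjusted p = 0.0242). Only the 24 h group lay wholly below the controls. The call was lost without control mouse 2, irradiated mouse 2 or irradiated mouse 4 (adjusted p of 0.0529 to 0.0593), and also with no filter (limma adjusted p = 0.0528). Since a depth of 1 read is worth 0.667 to 0.747 TPM in the 24 h libraries, the levels of both Jβ segments rest on few reads.

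Trbj1-1 had the highest mean of the Jβ segments in MC-38, at 3.14, 5.76, 5.37 and 2.10 TPM in the controls and 3.17, 7.57, 1.88 and 4.56 TPM at 24 h, with overlapping ranges and no call at any time. Trbj2-1 measured 1.23, 0.386, 3.44 and 1.12 TPM in the controls and 0.800, 2.23, 0.679 and 1.29 TPM at 24 h, which overlapped too. Trbj1-6, which lacks the codons marked in capitals above, measured 0, 1.12, 1.06 and 1.03 TPM in the RM-9 controls and 0.466, 2.32, 0 and 0 TPM in the MC-38 controls, and was called in neither model.

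Of the Dβ segments, Trbd1 passed the filter in MC-38. It measured 0.815, 0.920, 0.786 and 0.375 TPM in the controls and 0, 0, 0.371 and 0.747 TPM at 24 h (adjusted p = 0.360), and the groups overlapped. Trbd2 was above 0 in 6 MC-38 libraries at 0.620 to 1.18 TPM, and in 3 RM-9 libraries, all controls, at 0.183 to 0.376 TPM.

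Of the Jα segments, 43 of 60 were above 0 in some library, and Traj7 alone passed the filter, in MC-38. It measured 0.392, 0.515, 0.293 and 0.643 TPM in the controls, 1.12, 0.632, 0.763 and 1.36 TPM at 12 h, and 0.667, 0.659, 1.33 and 0 TPM at 24 h, and it was not called. Traj33 was above 0 in 2 MC-38 controls (0.921 and 0.530 TPM) and in all 4 tumors at 3 h (0.843, 1.01, 1.39 and 1.48 TPM), and was at 0 in all 8 tumors at 12 h and 24 h. Traj37 reached 3.45 TPM in MC-38 control mouse 2, and was above 0 in 1 other MC-38 library (0.734 TPM). In RM-9, Traj37, Traj34 and Traj21 had the highest Jα means, and each was above 0 in at most 5 of the 15 libraries, at up to 0.937, 1.41 and 0.766 TPM.

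Of the 34 Vβ segments, 19 were above 0 in some MC-38 library and 10 in some RM-9 library, and Trbv13-1 and Trbv17 passed the filter, both in MC-38. Their means were 1.45 and 0.894 TPM in the controls and at most 0.571 and 0.520 TPM in the irradiated groups. Both thus passed the filter largely through the controls, which favors a fall in their values. Trbv13-1 measured 1.45, 0.513, 0.709 and 3.14 TPM in the controls, 0, 0, 0.385 and 0.467 TPM at 3 h, 0, 0.318, 1.39 and 0 TPM at 12 h, and 1.01, 0, 0 and 1.27 TPM at 24 h. All tumors at 3 h lay below every control, with an adjusted p of 0.200, and it was at 0 in every RM-9 library. Trbv17 measured 0.308, 1.4, 1.15 and 0.710 TPM in the controls, and at 12 h 3 of 4 tumors were at 0 and 1 was at 2.05 TPM (adjusted p = 0.167).

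By their mean over all 16 libraries, the next Vβ segments in MC-38 were Trbv16 (0.450, 0.196, 1.84 and 0.567 TPM in the controls), Trbv13-2 (0.564, 0.968, 0.345 and 0.454 TPM) and Trbv15 (0.103, 0.694, 0 and 0 TPM). Summed over all 34 segments, Vβ TPM was 5.71 to 8.27 in the MC-38 controls, 2.28 to 5.36 at 3 h, 1.12 to 3.76 at 12 h and 0.569 to 3.69 at 24 h, so each irradiated tumor lay below the lowest control. In RM-9 the sum was 0.222 to 0.921 in the controls, 0.126 to 0.452 at 3 h, 0 to 0.203 at 12 h and 0 to 0.443 at 24 h, and only the 12 h range lay apart from the controls. The RM-9 Vβ segments with the highest means, among them Trbv3, Trbv31, Trbv13-2, Trbv19 and Trbv17, reached at most 0.378 TPM.

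Summed Vα TPM went the other way in MC-38, from 4.86 to 14.5 in the controls to 40.5 to 119 at 24 h, a sum that holds both rows of the Trav15 pair and of the Trav14 pair. Over the 123 Vα segments other than the first n and d copies of Trav13, Trav14 and Trav15, the sum was 1.17 to 4.15 TPM in the MC-38 controls, 0.839 to 2.61 at 3 h, 1.22 to 3.76 at 12 h and 2.66 to 3.97 at 24 h, with overlapping ranges. In RM-9 the Vα sum was 1.16 to 1.4 TPM in the controls, 0.838 to 2.01 at 3 h, 0.751 to 1.47 at 12 h and 0.558 to 0.913 at 24 h, where it lay below the controls. Other Vα segments named for their RM-9 means, Trav4d-4, Trav4n-4, Trav14n-3 and Trav6-3, reached at most 0.226 TPM there, and Trav4d-4 and Trav4n-4 share the last 280 bases of their V exons. Of all 129 Vα segments, 41 had every 75-base stretch in common with another segment.

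The number of V segments above 0 was 22 to 41 in the MC-38 controls, 19 to 27 at 3 h, 17 to 33 at 12 h and 22 to 30 at 24 h, and 8 to 14, 9 to 13, 7 to 12 and 4 to 12 in RM-9. These ranges overlapped at every time.

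The difference between the models was then tested, as the MC-38 change minus the RM-9 change, on 12 segments that passed the filter over all 31 libraries. At 12 h 2 of the 12 were called, the Trav15 pair, beside 44.9% of all 15358 genes higher and 0.469% lower. At 24 h the same 2 were called, beside 1.81% higher and 0% lower, and at 3 h none was (0% higher, 0% lower, with 2 of 12 segments and 1519 of all genes at an unadjusted p under 0.05). For Trav15n-1 the difference was 3.02 (SE 0.64, adjusted p = 0.00231) at 12 h and 3.60 (SE 0.66, adjusted p = 0.00441) at 24 h. The pair was at 0 in all 15 RM-9 libraries and passed the filter through MC-38 alone, so this value is the MC-38 change set against 0 and adds no test to it. With median-ratio scaling the split of all genes at 12 h changed from 6903 higher and 72 lower to 235 and 201, and the same 2 segments were called. The changes of Trac, Trbc1 and Trbc2 were not shown to differ between the models at any time (adjusted p of 0.234 or more).

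The other genes of the receptor pathway were counted from fixed lists. The CD3 complex, which carries the receptor's signal into the cell, had 2 of its 4 genes past the filter in RM-9 and all 4 in MC-38. Cd3g was lower in RM-9 at 12 h, from 1.66 ± 0.336 to 0.606 ± 0.434 TPM (SD, n = 4 each), a log2 fold change of -1.02 (SE 0.25, adjusted p = 0.0319), and Cd3d was not called (adjusted p = 0.0590). In MC-38, 3 of 4 were lower at 12 h, with Cd3g at -0.93 (SE 0.24, adjusted p = 0.0172), Cd3e at -0.77 (SE 0.25, adjusted p = 0.0341) and Cd247 at -0.71 (SE 0.23, adjusted p = 0.0323), while Cd3d had an adjusted p of 0.0501. At 24 h Cd3e (-0.95, SE 0.25, adjusted p = 0.0224) and Cd3g (-0.80, SE 0.24, adjusted p = 0.0380) were lower. None of the list was called at 3 h in either model, or at 24 h in RM-9, and none was higher. The share of all tested genes that were lower was 8.30% in RM-9 at 12 h, and 2.59% at 12 h and 0.548% at 24 h in MC-38. The RM-9 call of Cd3g held in 1 of the 8 fits that left out a mouse, the one without control mouse 3 (adjusted p of up to 0.111), and not with median-ratio scaling (adjusted p = 0.167). In MC-38 the 12 h call of Cd3g held in 7 of 8 such fits and those of Cd3e and Cd247 in 3 of 8, and at 24 h those of Cd3e and Cd3g held in 6 and 2 of 8.

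Of the coreceptors, which bind the presenting molecule beside the receptor, Cd4 was lower at 12 h in RM-9 (-0.65, SE 0.19, adjusted p = 0.0470) and in MC-38 (-0.75, SE 0.21, adjusted p = 0.0215). The call held in 1 of 8 fits that left out a mouse in RM-9, again the one without control mouse 3 (adjusted p of up to 0.153), and in 4 of 8 in MC-38, and median-ratio scaling ended it in RM-9 (adjusted p = 0.202). Cd8a and Cd8b1 were tested in MC-38 alone, where neither was called at any time (adjusted p of 0.0822 or more). Of 13 proximal signalling genes, 3 of 7 tested were lower at 12 h in RM-9 (Lat, Ptprc and Lcp2) and 4 of 12 in MC-38 (Rhoh, Lcp2, Ptprc and Cd5), beside 8.30% and 2.59% of all genes, with none called at 3 h or 24 h. With 1 mouse left out, the RM-9 calls of Ptprc and Lcp2 held without control mouse 3 alone and that of Lat in 2 of 8 fits, and median-ratio scaling ended all 3. In MC-38, Rhoh held in 8, Lcp2 in 5, Ptprc in 4 and Cd5 in 2 of 8 fits. Rhoh, a GTPase needed for receptor signalling, had the largest of these changes, -1.07 (SE 0.22, adjusted p = 0.00908). Lcp2 and Ptprc are also expressed by myeloid cells. The recombination genes Rag1, Rag2 and Dntt summed to at most 0.0992 TPM in RM-9 and 0.263 TPM in MC-38 and none passed the filter, and of 26 γ and δ receptor genes 3 were tested, in MC-38, with none called.

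**Figure D5:**
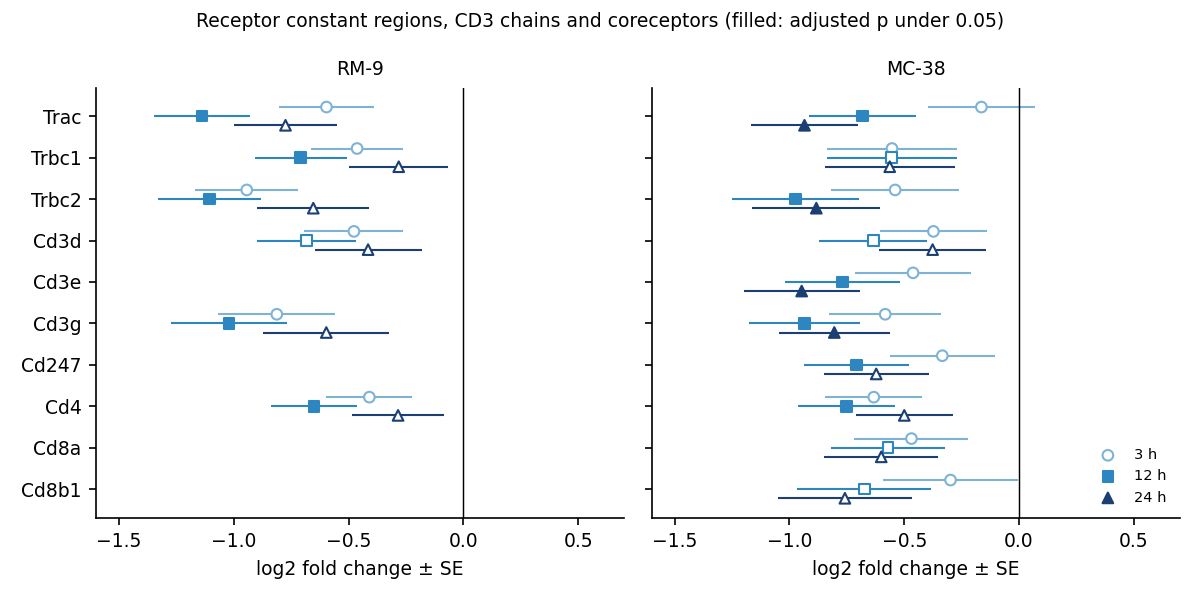
Log2 fold change against control with its SE for the constant regions, CD3 chains and coreceptors in RM-9 and MC-38 at 3 h (circles), 12 h (squares) and 24 h (triangles); filled symbols have an adjusted p under 0.05. All symbols lie left of 0, the filled ones are at 12 h in RM-9 and at both later times in MC-38, and genes with no symbol did not pass the filter.

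The marker lists of cell types show what moved with the receptor segments in these whole tumors, and the part of any of them in the results was not tested. Of 13 T cell markers, 2 of 6 tested were lower at 12 h in RM-9, and in MC-38 5 of 11 were lower and 1 higher at 12 h, and 3 lower and 1 higher at 24 h, the higher one being Tcf7 each time. These markers include the CD3 genes and Cd5, Cd6, Cd28 and Lck, which were counted above too, so the calls are in part the same ones. Their summed TPM was 11 to 17.5 in RM-9 controls and 4.84 to 9.23 at 12 h, and 36.1 to 45.8 in MC-38 controls and 31 to 45.2 at 12 h. Macrophage markers were lower as well at 12 h, 5 of 8 in each model, with summed TPM of 381 to 597 in RM-9 controls and 189 to 370 at 12 h, and 821 to 1311 in MC-38 controls and 299 to 710 at 12 h, and 1 of 8 was lower in MC-38 at 24 h. Of all tested genes, 8.30% were lower in RM-9 at 12 h. In MC-38, 2.59% were lower and 28.5% higher at 12 h, and 0.548% lower and 13.2% higher at 24 h.

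Of the B cell markers, 2 of 4 tested were higher in MC-38 at 12 h and at 24 h (Cd79a and Pax5), with summed TPM of 8.17 to 14.1 in the controls and 19.6 to 23.9 at 24 h, although Blk and Fcmr were at 0 in every MC-38 library. Of the naive or recirculating lymphocyte markers, 3 of 6 tested were higher and 1 lower in MC-38 at 24 h. Of the regulatory T cell markers, 1 of 3 was higher in MC-38 at 12 h. Of the CD8 effector markers, 1 of 6 (Gzmb) was higher in MC-38 at 24 h. Of the proliferation markers, 3 of 6 were higher in MC-38 at 12 h and 1 at 24 h. These counts stand beside 28.5% of all genes higher in MC-38 at 12 h, and 13.2% higher and 0.548% lower at 24 h. Of the neutrophil markers none was called in either model, and none of the 5 NK cell markers was called in MC-38, while in RM-9 they did not pass the filter.

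Skeletal muscle markers differed widely between tumors and none was called. Their summed TPM was 248 to 2371 in RM-9 controls, 2.95 to 919 at 3 h, 2.75 to 970 at 12 h and 229 to 2398 at 24 h, and 19.2 to 11816 in MC-38 controls, with the highest value in mouse 1, and 5.51 to 488 at 12 h. Without MC-38 control mouse 1, 5 segments were called at 12 h and 6 at 24 h, and the Trav15 and Trav14 pairs were among them both times. The mitochondrial gene mt-Nd4l took 35.6% to 43.5% of all TPM in RM-9 and 12.9% to 29.6% in MC-38, so levels between the models also differ by this share. Within RM-9 it took 36.2% to 39.5% in the controls and 39.9% to 43.5% at 12 h, so every tumor at 12 h lay above every control. At 3 h and 24 h in RM-9, and at all times in MC-38, the ranges overlapped the controls. The part of this share in the RM-9 falls at 12 h was not tested beyond the fit without mitochondrially encoded genes.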

How the data were processed

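mRNA of 31 tumors was sequenced as 75-base single reads. The authors deposited 1 table per tumor with 3 values a gene, coverage, FPKM and TPM, and TPM was analysed. FPKM was not used. Coverage, the mean read depth deposited with each gene, served to estimate reads and the TPM of a depth of 1. The aligner and counter, with their strand setting, are not given in the sources used here. The submitters' processing notes name bcl2fastq 2.17 and GRCm39, but all 242 segments had the start and end that GENCODE M21 gives for GRCm38, which was used for coordinates and sequences.

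Groups followed the labels. Within each model log2(TPM + 0.5) of genes with a mean of at least 0.5 TPM was fitted with limma 3.58.1 (R 4.3.3) over all its groups, each time was compared with control, and p-values were adjusted by Benjamini-Hochberg over all genes at a threshold of 0.05. A fold change on this scale understates the change of low genes. All comparisons within a model share their controls, and p-values measure the spread between mice. Differences between models were tested in 1 fit over both. The constant genes were also tested by exact permutation (scipy 1.17.1). On simulated data with 200 changed genes, 84% of the changes of size 1 (log2) were recovered at 24 h in RM-9 and 76% in MC-38. These genes were drawn from all tested genes, and each varied independently of the others. The rates therefore do not give the power for the receptor segments, which rest on few reads. In the real RM-9 libraries at 24 h no gene was called.

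Named were the constant genes, all Trav15 segments, the 3 largest rises and falls among the calls of each comparison, the 5 most abundant Trav and Trbv and 3 most abundant Traj and Trbj segments of each model, and both Trbd segments. Trav13d-1, Trav13-1, Trav14-1 and the genes on the opposite strand were named after their values were seen, for their place beside Trav15. Trav14-3 was named for its call with no filter. Members and lists were chosen with earlier results of these data known. Alternatives were 2 other pseudocounts (0.1 and 1 TPM), 2 other filters, 2 other scalings, a minimum log2 fold change of 1, no intensity trend, only the groups compared, a replicate block and leaving out each mouse.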

Additional observations from a re-analysis of the deposited data

Results flagged for a closer look

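Of 81 groups of 4 mice tested for a value far from the rest, 5 held one. The rule flags about 1 in 20 groups by chance only if values are independent and normally distributed. These values are not, since many are at 0 and both rows of the Trav15 and Trav14 pairs were tested, so the chance rate here is not known. Trac measured 1.73 TPM in mouse 1 of RM-9 at 12 h, where the nearest other mouse was at 1.10 TPM. Trbj1-6 was at 0 in RM-9 control mouse 1, with the nearest mouse at 1.03 TPM, and at 0 in mouse 2 of MC-38 at 12 h, with the nearest at 1.94 TPM. Trbj2-7 was at 0 in mouse 4 of RM-9 at 12 h, with the nearest at 0.354 TPM. Trbv17 measured 2.05 TPM in mouse 3 of MC-38 at 12 h, where the other 3 mice were at 0.

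In the fit over both tumor models limma called the Trav15 pair, which was at 0 in all 15 RM-9 libraries, so the difference is the MC-38 change set against 0 and adds no test to it. For Trav15n-1 the MC-38 change minus the RM-9 change was 3.02 at 12 h and 3.60 at 24 h on the log2(TPM + 0.5) scale. For Trav15d-1-dv6d-1 it was 2.97 and 3.56. Both are 1 set of reads, and all 4 irradiated MC-38 tumors lay above all MC-38 controls at both times.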

How the results depend on the processing

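Of 175 recomputed counts of called segments, 158 stayed within 1.5 times the reported count and 17 did not. Of 698 recomputed values of named segments, 637 kept their direction and side of the threshold, 57 lost a call, 4 gained one and 0 reversed. Of 242 values of the called CD3, coreceptor and signalling genes, 136 kept both and 106 lost the call. In RM-9, 1 segment was called at 3 h with median-ratio scaling (0 reported), and at 12 h (3 reported) 0 were with that scaling, 0 with only the 2 groups compared and 1 without mitochondrially encoded genes. In MC-38 at 12 h (7 reported), 3 were called with a minimum log2 fold change of 1, 3 with only the 2 groups compared and 4 with a mean TPM of at least 5, and the last also gave 4 at 24 h (7 reported). The fit of only the 2 groups compared called neither Trac nor Trbc2 at 12 h or 24 h. Without a filter, 6 segments differed between the models at 12 h and 5 at 24 h (2 reported each). The cause of these shifts was not tested, except that a higher filter leaves fewer segments to test. A mean TPM of at least 5 gave no value in RM-9, where no segment passed it.

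Leaving out each mouse in turn gave 0 to 1 called segments in RM-9 at 3 h, 0 to 3 at 12 h and 0 to 0 at 24 h, and 0 to 0, 5 to 9 and 4 to 7 in MC-38, with the lowest at 24 h without irradiated mouse 2. Where no segment was called in RM-9 at 12 h, no gene of the whole table was called either. For the difference between models the ranges were 0 to 0 at 3 h, 2 to 3 at 12 h and 2 to 2 at 24 h. The Trav15 pair stayed called in MC-38 at both later times under each alternative, where the log2 fold change of Trav15n-1 was 2.72 to 3.34 and 3.31 to 3.93. With the replicate block 3 segments were called in RM-9 at 12 h, 7 in MC-38 at 12 h and 6 at 24 h, where Trbc2 was lost (adjusted p = 0.0538 by limma). The block also ended the calls of Cd4 and Ptprc in RM-9 at 12 h, of Cd5 in MC-38 at 12 h and of Cd3g in MC-38 at 24 h (adjusted p of 0.0509 to 0.0552 by limma), and no other call of a segment or of these lists. The calls of the cell type markers were not recomputed. Same-numbered mice did not deviate together (23 correlations of -0.48 to 0.55, median -0.01), so the numbers were not taken as pairing. Low depth limits the J, D and most V segments, which can be at 0 in a tumor that holds their messages.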
